A study of Mus musculus with 11 samples.

Results

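The resistin-like family of the mouse is made up of Retn (resistin), Retnla (resistin-like alpha), Retnlb (resistin-like beta) and Retnlg (resistin-like gamma). Its members were taken as the probes whose gene name in the scanner files is one of these 4 symbols, which gave 6 probes of 41174 other than controls, and 4 genes of 27670 named. Retnla and Retn have 2 probes each, Retnlb and Retnlg 1 each, and every probe has 1 spot per array. All 6 probes passed the filter on dim signal and none was saturated on any of the 11 arrays. Retnlb passed it through the OVA arrays, on which it is high.

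The arrays measured total RNA of lung tissue on one-colour (Cy3) 60-base oligonucleotide arrays. The groups were Foxa3 KO mice challenged with OVA (KO OVA, n = 3), littermate controls challenged with OVA (WT OVA, n = 3), Foxa3 KO mice challenged with saline (KO saline, n = 2) and littermate controls challenged with saline (WT saline, n = 3). OVA is ovalbumin, an egg protein used as an allergen, and Foxa3 is a forkhead transcription factor. Strain, age, sensitisation, dose and the part of Foxa3 removed are not given in the labels. The labels give no link from arrays to animals, so p-values measure the spread between samples that may be partly technical.

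By background, resistin-like proteins are small secreted proteins rich in cysteine. In mice, Retnla is a classic product of alternatively activated macrophages and of airway epithelium under the type 2 cytokines interleukin 4 and interleukin 13, which act through the transcription factor STAT6. Retnlb is best known from goblet cells of the gut, Retnlg from bone marrow and neutrophils, and Retn as a hormone of white fat cells.

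The probes are shown because the 3 chromosome 16 genes are close relatives and their signals can be told apart only where the oligonucleotides differ. Coordinates are those of the files (mouse build mm7). In the Retnla and Retn probes, capitals mark the bases that the gene's other probe also holds. In the Retnlb and Retnlg probes, capitals mark bases identical to the Retnla probe A_52_P254817 in the best alignment without gaps.
Retnla probe A_51_P257951, chr16:48604517-48604576: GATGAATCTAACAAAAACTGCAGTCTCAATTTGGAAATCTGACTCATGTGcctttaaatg
Retnla probe A_52_P254817, chr16:48604507-48604566: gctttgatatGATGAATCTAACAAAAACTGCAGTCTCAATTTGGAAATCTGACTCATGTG
Retnlb probe A_51_P428360, chr16:48579484-48579543: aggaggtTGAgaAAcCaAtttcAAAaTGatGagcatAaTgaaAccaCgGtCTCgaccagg
Retnlg probe A_52_P425839, chr16:48635078-48635137: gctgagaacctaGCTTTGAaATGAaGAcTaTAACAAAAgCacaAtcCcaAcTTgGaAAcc
Retn probe A_52_P55972, chr8:3618519-3619340: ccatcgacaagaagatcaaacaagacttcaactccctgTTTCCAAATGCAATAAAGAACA
Retn probe A_51_P233597, chr8:3618557-3619378: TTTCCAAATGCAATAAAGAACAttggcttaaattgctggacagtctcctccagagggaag

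The 2 Retnla probes share a run of 50 bases and the 2 Retn probes a run of 22, so within a gene they are not independent measurements. Between genes the longest shared run was 5 to 8 bases. The highest identity between probes of different genes was 36 of 55 aligned bases (65.5%) for Retnlb and Retnlg, followed by 31 of 48 (64.6%) for Retnla and Retnlg. Each Retn probe of 60 bases covers 822 bases of the genome in the files, which is more than its own length. Which exon or untranslated part each probe lies in was not looked up, since no mm7 annotation was used here.

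Retnla and Retnlg also resemble each other upstream of their start sites, and both promoters are shown for that reason. The sequences are the 250 bases before the start, plus strand, from RefSeq (GRCm38.p6), and capitals mark matches to the motifs named next.
Retnla promoter, chr16:48842359-48842608: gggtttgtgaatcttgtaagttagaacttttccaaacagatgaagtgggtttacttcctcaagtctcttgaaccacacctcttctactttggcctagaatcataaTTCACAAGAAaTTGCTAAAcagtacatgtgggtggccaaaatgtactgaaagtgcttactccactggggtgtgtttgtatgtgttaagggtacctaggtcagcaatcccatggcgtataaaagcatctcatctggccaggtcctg
Retnlg promoter, chr16:48872358-48872607: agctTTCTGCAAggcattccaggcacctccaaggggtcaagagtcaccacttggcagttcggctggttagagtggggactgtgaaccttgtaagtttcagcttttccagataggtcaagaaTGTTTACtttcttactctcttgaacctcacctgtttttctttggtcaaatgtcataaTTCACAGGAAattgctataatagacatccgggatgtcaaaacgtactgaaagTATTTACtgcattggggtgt

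They aligned over 178 columns, of which 138 were identical (77.5%) and 3 were gaps. A match to TTC, any 4 bases and GAA, the spacing preferred by STAT6, began 145 bases before the start in Retnla (TTCACAAGAA) and 72 bases before it in Retnlg (TTCACAGGAA). On either strand this motif occurs in 5.85% of 32851 promoters of the same length. TTGCNNAA, a C/EBP motif present in 9.56% of promoters, occurred once in Retnla, 134 bases before the start, and once in Retnlg on the minus strand, 246 bases before it. TNTTTAC, a forkhead motif present in 10.9% of promoters, occurred at 129 and 20 bases before the start in Retnlg, and these letters are in neither the Retnla nor the Retn window. TTCNNNGAA, the spacing of other STAT factors (7.02% of promoters), was in none of the 3 windows, and the Retn window held none of the 4 motifs. Of the 4 genes 3 matched the promoter table, the exception being Retnlb.

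Foxa3 itself marked the genotypes as labelled. Its probe was well above background on 0 of 5 KO arrays and on 6 of 6 WT arrays. On background-subtracted intensity it was at least 8.15-fold lower in KO OVA than in WT OVA (limma adjusted p = 0.000353). After saline it was at least 1.58-fold lower in KO than in WT (limma adjusted p = 0.0323). These sizes depend on how dim signals are treated. With normexp background correction, which lifts dim signals, its log2 levels were -4.42 to -4.22 in KO OVA and -3.25 to -3.03 in WT OVA. After saline they overlapped, at -4.45 and -4.06 in KO and -4.08 to -3.99 in WT. Marker genes of alveolar type II cells and club cells, 8 and 5 genes, were well above background on all 11 arrays. Slides 1 and 2 carry 1 array of each group, slide 3 carries 1 KO OVA, 1 WT OVA and 1 WT saline array, so comparisons could also be made within slides. Levels in the text are log2 intensity minus the array's 75th percentile, for the brightest probe of a gene, and are compared between arrays but never between genes. Differences are log2 differences with their standard error, tested with limma over 21872 genes and called at an adjusted p under 0.05.

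Retnla and Retnlb rose with OVA in KO and in WT lung, 2 of the 4 members in each, against 6.45% of all genes called higher in KO and 10.9% in WT. Retnlg was higher and did not pass the test in either genotype. Retn did not pass it in any comparison, and no member passed in KO against WT, in which 0.21% of genes were called after OVA and 0.096% after saline. The difference of the OVA effects between genotypes, in which 0.00457% of genes were called, was called for no member. In bulk lung tissue, a change in the number of cells that make a transcript and a change in the amount per cell cannot be told apart.

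**Figure D1:**
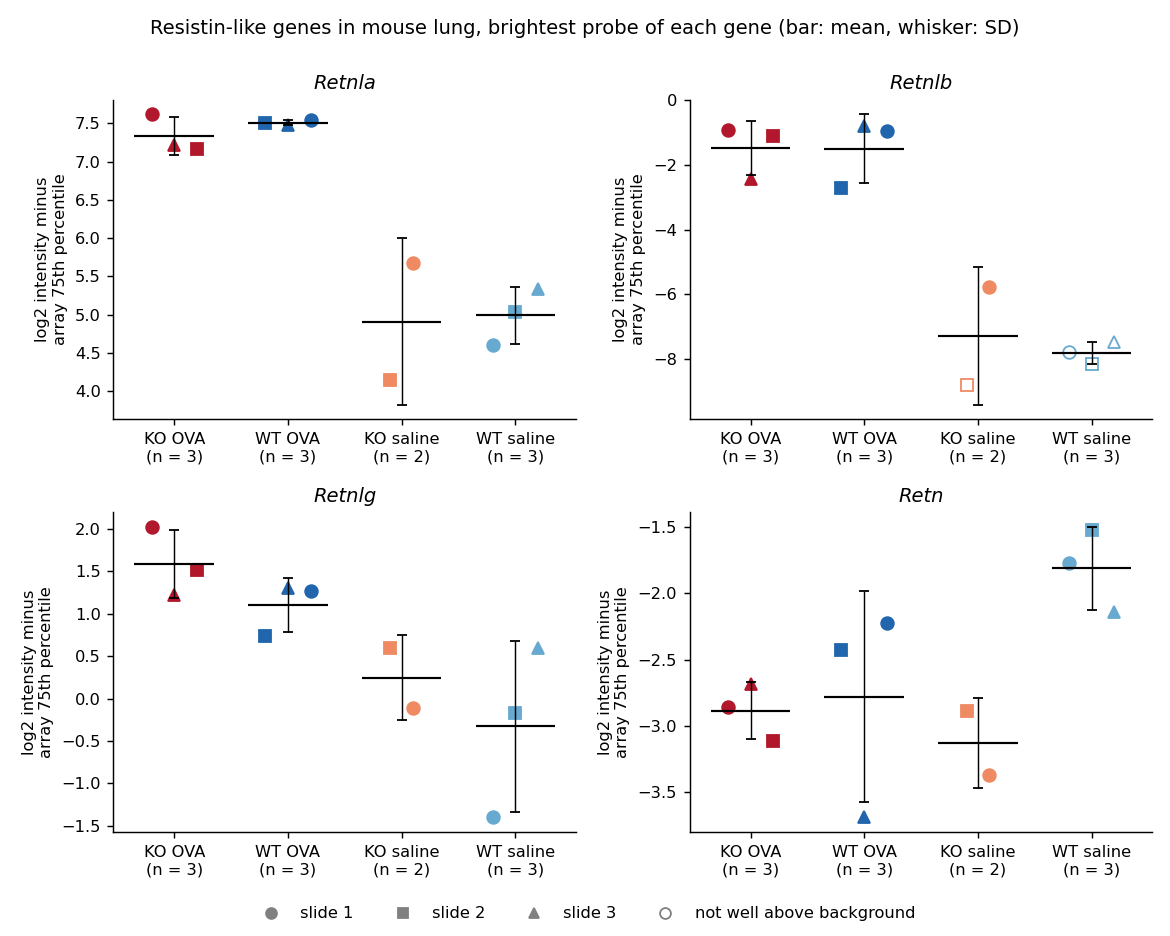
Log2 intensity minus the array's 75th percentile (vertical axis, its own range in each panel) of the brightest probe of each gene, by group. Points are arrays, shaped by slide, open where the probe was not well above background, with group mean and SD. Retnla and Retnlb separate OVA from saline arrays in both genotypes, whereas the WT saline arrays stand highest for Retn.

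Retnla rose with OVA in both genotypes, and its probe read 22500 to 216072 intensity units over the arrays. Its level was 7.62, 7.22 and 7.17 on the KO OVA arrays and 7.51, 7.48 and 7.54 on the WT OVA arrays. It was 4.14 and 5.68 on the KO saline arrays and 4.60, 5.04 and 5.33 on the WT saline arrays. Every OVA array lay above every saline array, and KO and WT overlapped under both challenges. How many of all genes separate in this way was not counted. Retnla was 2.42 ± 0.39 higher in KO OVA than in KO saline, which is 5.36-fold (limma adjusted p = 0.00932). It was 2.52 ± 0.35 higher in WT OVA than in WT saline, which is 5.73-fold (limma adjusted p = 0.00389).

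The probe that overlaps it gave 2.70 in KO and 2.74 in WT for the same differences (limma adjusted p = 0.00746 and 0.00326 over 32942 probes). The brighter Retnla probe exceeded the dimmer by 0.05 to 0.56 on the 11 arrays, so both followed the same pattern. Within slides the rise in KO was 1.94 on slide 1 and 3.02 on slide 2, and in WT it was 2.94, 2.47 and 2.15 on slides 1 to 3. The rise in KO rests on a pair of saline arrays that differ by 1.54. Without KO saline 1 it was 1.65 (limma adjusted p = 0.0564) and without slide 2 it was 1.74 (limma adjusted p = 0.181), and over all alternatives the adjusted p ran from 0.00291 to 0.181. In WT the call was lost without slide 3 (2.70, limma adjusted p = 0.0572), and the lowest adjusted p among the alternatives was 0.000924.

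After OVA the level of Retnla was nearly the same on every array. The 6 OVA arrays spanned 0.45, whereas the 5 saline arrays spanned 1.54. Other genes, chosen after their values were seen, had narrow and wide ranges on the same 6 arrays. Of the goblet cell list, Clca1, a secreted protein, spanned 0.45 and Agr2 1.12. Of the alternatively activated macrophage list, Chil3 spanned 0.49, Chil4 1.24, Arg1, an arginase, 4.84, and Ccl24, an eosinophil attractant, 4.86. The levels on these arrays were 7.17 to 7.62 for Retnla, 6.85 to 7.31 for Clca1 and 6.92 to 7.41 for Chil3. They were 2.51 to 3.63 for Agr2, 5.09 to 6.34 for Chil4, -0.40 to 4.44 for Arg1 and 1.16 to 6.03 for Ccl24. Whether the brightness of a probe plays a part in its range was not tested. Foxa3 genotype made no difference to Retnla that passed the test. KO was 0.17 ± 0.35 below WT after OVA (95% interval -0.97 to 0.62) and 0.08 ± 0.39 below WT after saline (-0.96 to 0.81), with a limma adjusted p of 1 for both. Within slides KO differed from WT by 0.08, -0.34 and -0.26 after OVA on slides 1 to 3, and after saline by 1.08 on slide 1 and -0.90 on slide 2, which disagree in sign. The intervals do not show equal levels.

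Retnlb was near the limit of detection in saline lung and clearly detected after OVA. Its probe was well above background on 7 of 11 arrays, which were the 3 KO OVA arrays, the 3 WT OVA arrays and KO saline 2. Its level was -0.90, -2.42 and -1.09 on the KO OVA arrays and -2.72, -0.80 and -0.96 on the WT OVA arrays. It was -8.80 and -5.79 on the KO saline arrays and -7.80, -8.16 and -7.47 on the WT saline arrays. OVA and saline arrays were far apart in each genotype, and KO and WT overlapped.

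In KO, Retnlb was 5.83 ± 0.89 higher after OVA, a fitted 56.8-fold in which KO saline 1 was not well above background (limma adjusted p = 0.00787). In WT it was at least 47.1-fold higher after OVA on background-subtracted intensity, since no WT saline array was well above background (limma adjusted p = 0.00293). The measured means were -1.50 in WT OVA and -7.81 in WT saline. On slide 1, the only slide whose KO saline array had a detected signal, the difference in KO was 4.89. The size of the rise depends on how dim signals are treated. With normexp background correction, which lifts dim signals, the log2 difference was 2.80 in KO and 3.15 in WT, and with the authors' value table it was 3.01 in KO and 3.13 in WT, all far below the values just given and all past the threshold.

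Both saline arrays of the KO group shaped the KO value. Without KO saline 1 the difference was 4.32 (limma adjusted p = 0.067) and without KO saline 2, the only saline array with a detected signal, the fitted value was 7.33. It was not called without slide 1 (7.05, limma adjusted p = 0.15) or without slide 2 (4.13, limma adjusted p = 0.105), the lowest adjusted p among all alternatives being 0.00249. In WT the call was lost without slide 1 (6.05, limma adjusted p = 0.0915), with a lowest adjusted p of 0.00066. KO differed from WT by 0.03 ± 0.80 after OVA (95% interval -1.77 to 1.83, limma adjusted p = 1), and by 0.06, 1.64 and -1.62 on slides 1 to 3, which disagree in sign. After saline the probe was well above background on 1 of 2 KO arrays and 0 of 3 WT arrays. Fitted differences between the genotypes there are therefore not measured sizes.

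Retnlb was uneven within the OVA groups, where Retnla was not. It spanned 1.92 over the 6 OVA arrays, with WT OVA 1 and KO OVA 2 as the lowest. The same 2 arrays had the lowest mean level of the alternatively activated macrophage list, at 1.65 on KO OVA 2 and 1.05 on WT OVA 1, against 1.78 to 2.70 on the other 4 OVA arrays. KO saline 2, which had the highest saline level of Retnlb, also had the highest saline level of Retnla. Whether the make-up of those samples plays a part was not tested.

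Retnlg was detected on all 11 arrays, at 506 to 4445 intensity units. Its level was 2.02, 1.22 and 1.51 on the KO OVA arrays and 0.74, 1.30 and 1.27 on the WT OVA arrays. It was 0.60 and -0.11 on the KO saline arrays and -1.40, -0.17 and 0.59 on the WT saline arrays. In each genotype every OVA array lay above every saline array, by a gap of 0.62 in KO and of 0.16 in WT, while KO and WT overlapped. How many of all genes separate in this way was not counted. With so few arrays per group, separation alone is weak evidence of a difference. Retnlg was 1.34 ± 0.51 higher in KO OVA than in KO saline (limma adjusted p = 0.122). It was 1.43 ± 0.46 higher in WT OVA than in WT saline (limma adjusted p = 0.0581).

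The WT difference lay at the threshold and was decided by the setting. It passed with normexp (limma adjusted p = 0.0309), with a trended robust prior (0.0348) and with the authors' value table (0.0394), and also without WT saline 3, at 1.89 (0.0325). Without WT saline 1 it was 0.90 (0.124). Over all alternatives the adjusted p ran from 0.0309 to 0.271. Within slides the difference in KO was 2.13 and 0.91 on slides 1 and 2, and in WT it was 2.67, 0.92 and 0.72 on slides 1 to 3, so slide 1 gave the largest value in both. KO was 0.47 ± 0.46 above WT after OVA (95% interval -0.57 to 1.52) and 0.57 ± 0.51 above it after saline (-0.59 to 1.74), and neither passed. Within slides it was 0.74, 0.77 and -0.09 after OVA on slides 1 to 3, and 1.29 and 0.77 after saline on slides 1 and 2.

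The list of neutrophil and myeloid granule genes had 12 tested members, 2 of which rose with OVA in KO and 2 in WT, against 6.45% and 10.9% of all genes, with medians of 0.17 in KO and 0.40 in WT. Those that rose in both were Lcn2, an iron-scavenging protein also made by epithelium (1.79 in KO and 1.71 in WT), and Ltf, lactoferrin (1.22 in KO and 0.98 in WT). Mpo, myeloperoxidase, was 0.29 higher in KO and 0.62 higher in WT and did not pass. S100a8, S100a9 and Mmp9 were lower, by -0.29, -0.13 and -0.44 in KO and -0.52, -0.33 and -0.51 in WT. Mmp8 and Csf3r were higher, by 0.43 and 0.05 in KO and 0.60 and 0.56 in WT, and none of these genes was called. The mean level of the list ran from -0.83 to 0.12 in KO OVA, -0.88 to -0.55 in WT OVA, -1.06 to -0.48 in KO saline and -1.76 to -0.29 in WT saline, so the OVA and saline ranges overlapped. KO OVA 1, highest for Retnlg, was the highest array of the list, and WT saline 1, lowest for Retnlg, was the lowest. That holds for the list mean and not for most single genes. KO OVA 1 was the highest array for 3 of the 12 genes and KO saline 1 for 5, and WT saline 1 was the lowest for 4. The part of neutrophil content in the Retnlg values was not tested.

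Retn was the only member with its highest level in a saline group. Its level was -2.86, -2.68 and -3.11 on the KO OVA arrays and -2.43, -3.69 and -2.22 on the WT OVA arrays. It was -2.89 and -3.37 on the KO saline arrays and -1.77, -1.52 and -2.14 on the WT saline arrays. The 3 WT saline arrays lay above the other 8, of which the nearest, WT OVA 3, was 0.08 lower. How many of all genes have a group set apart in this way was not counted. On the gene's other probe WT OVA 3 (-2.44) lay above WT saline 3 (-2.68), so there the WT OVA and WT saline groups overlapped. The KO OVA, WT OVA and KO saline groups overlapped on both probes. All 11 arrays were well above background, at 89.3 to 485 intensity units.

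Retn was 1.32 ± 0.40 lower in KO saline than in WT saline, a 2.50-fold difference that did not pass the correction over all genes (unadjusted p = 0.00957, limma adjusted p = 1). Its 95% interval was -2.23 to -0.41, and the difference was -1.60 on slide 1 and -1.37 on slide 2. After OVA, KO was 0.10 ± 0.36 below WT (-0.92 to 0.71), with -0.64, -0.68 and 1.01 on slides 1 to 3. OVA and saline differed by 0.24 ± 0.40 in KO (limma adjusted p = 0.735) and by -0.97 ± 0.36 in WT (limma adjusted p = 0.0861), and the slide values were 0.51 and -0.22 in KO on slides 1 and 2 and -0.45, -0.91 and -1.56 in WT on slides 1 to 3. One array weighed heavily on 2 of these values, since without WT OVA 2 the difference in WT was -0.52 and KO against WT after OVA was -0.56. The OVA effect in KO exceeded that in WT by 1.22 ± 0.54 (unadjusted p = 0.0506, limma adjusted p = 1). The dimmer Retn probe gave -1.35 for KO against WT after saline and -0.94 for OVA against saline in WT, and neither passed. With the authors' value table the WT difference was -0.82 and passed (limma adjusted p = 0.0368, with 0.0368 to 0.263 over all alternatives).

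**Figure D2:**
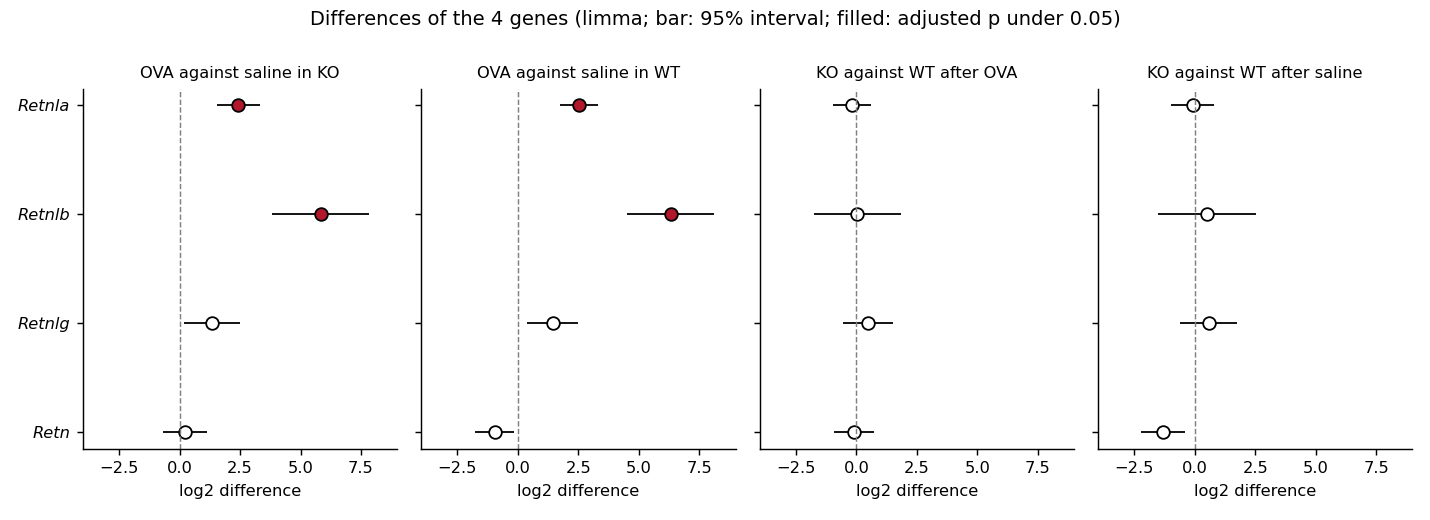
Log2 differences of the 4 genes (horizontal axis) in the 4 comparisons, with 95% intervals from limma; filled points have an adjusted p under 0.05. The Retnla and Retnlb rises with OVA are called in KO and in WT, and no KO against WT difference is called. Retnlb was not well above background on any WT saline array, so its values against that group are those of the model and not measured sizes.

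Levels of each member over the 11 arrays were also compared with those of 15913 genes with a usable symbol. Likeness was the root mean square difference in log2 level after each profile was centred on its own mean, so a smaller value is more alike. It describes arrays that share groups and slides, and it has no test. Retnla, whose own standard deviation over the arrays was 1.29, was nearest to Gbp2b (0.31), an interferon-inducible GTPase, Septin12 (0.37), Clca1 (0.38) and Fam3b (0.42), against a median of 1.31 over all genes. Retnlb was nearest to the acute-phase gene Saa3 (0.72), to Ubd (0.81), which encodes a ubiquitin-like protein, and to the chemokine genes Ccl8 (0.87) and Cxcl9 (0.93), against a median of 3.18. Saa3, Ccl8 and Cxcl9 were well above background on all 11 arrays and Ubd on 10, whereas Retnlb was so on 7. Of the genes nearest to Retnla, Gbp2b was so on 10 arrays and Septin12 on 7.

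Retnlg was nearest to Trpm2 (0.32), a cation channel, Aqp9 (0.32), a water and glycerol channel, Icos (0.39), a T cell costimulator, and Fgr (0.39), a myeloid Src family kinase, against a median of 0.96. Retn had the nearest neighbours of the family in absolute terms, at 0.14 for Car3, a carbonic anhydrase abundant in fat, 0.14 for Tmem45b, 0.14 for Adipoq, the fat cell hormone adiponectin, and 0.15 for Cfd, the fat cell protease adipsin. The median over all genes was 0.68 and the standard deviation of Retn itself 0.64. That standard deviation was the smallest of the family, against 0.91 for Retnlg, 1.29 for Retnla and 3.18 for Retnlb. Distances shrink with the spread of a gene, so they do not rank the members by closeness to their neighbours.

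**Figure D3:**
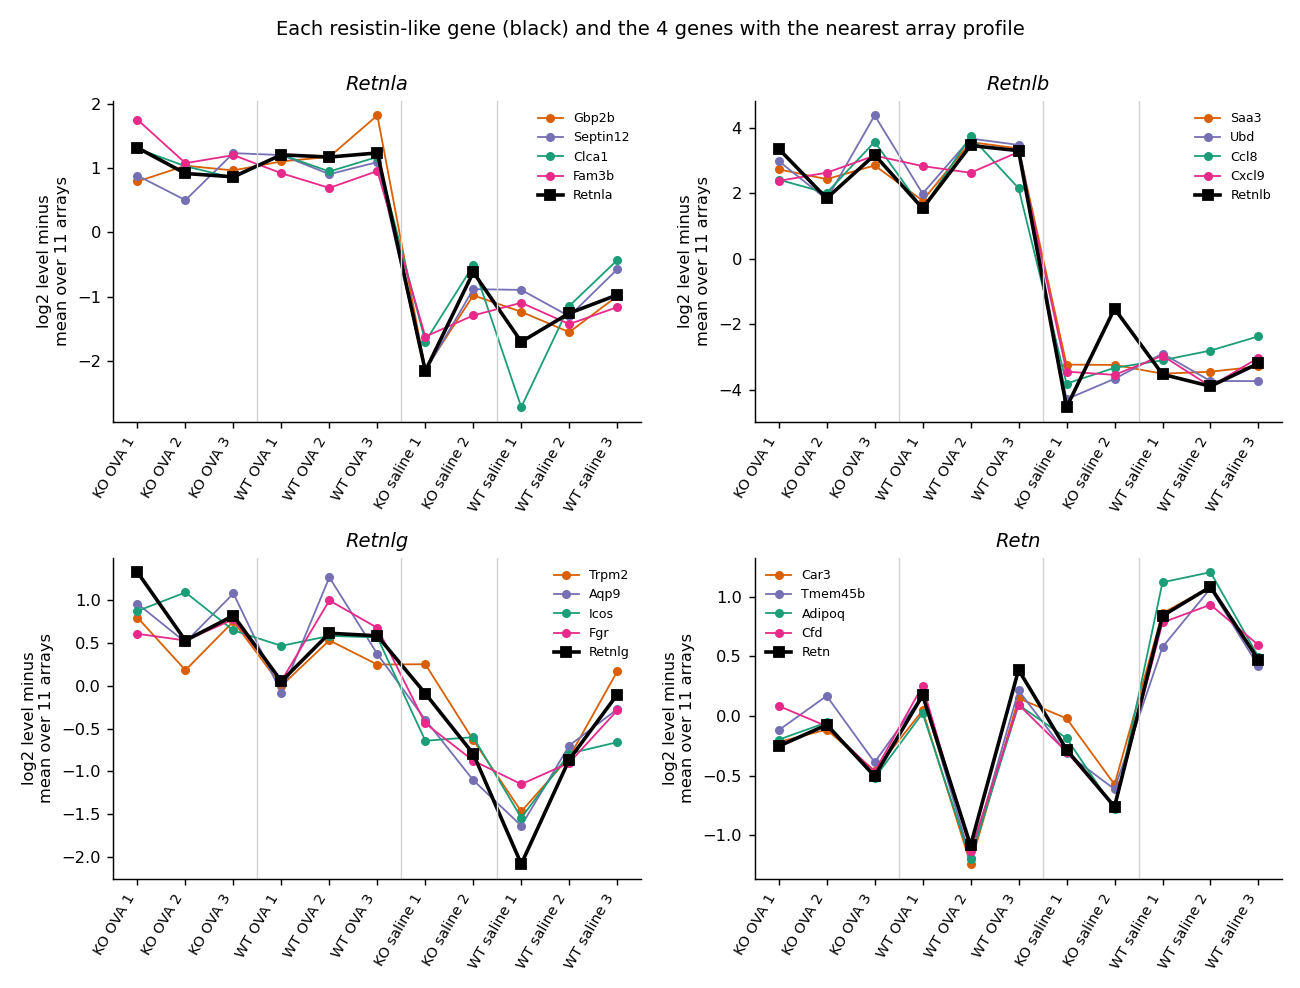
Log2 level minus its mean over 11 arrays (vertical axis) for each resistin-like gene (black squares) and the 4 genes of nearest profile (coloured), arrays in the order of the 4 groups. The Retn profile, with a dip at WT OVA 2 and a rise at the WT saline arrays, is followed by Car3, Tmem45b, Adipoq and Cfd.

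Adipoq had levels of -1.25, -1.10 and -1.57 on the KO OVA arrays and -1.03, -2.25 and -0.96 on the WT OVA arrays. It had -1.23 and -1.83 on the KO saline arrays and 0.07, 0.16 and -0.55 on the WT saline arrays. As for Retn, WT OVA 2 was the lowest array and the WT saline arrays were the highest. Of 11 tested genes of the adipocyte list, 4 fell and 0 rose with OVA in WT, against 7.91% of all genes called lower and 10.9% higher. In KO 0 fell and 1 rose, against 1.78% called lower and 6.45% higher. Those with the smallest p in WT were Pck1, Cidec and Adipoq. Pck1, a gluconeogenic and glyceroneogenic carboxykinase, differed by -0.92 in KO, not called, and -2.53 in WT. Cidec, a lipid droplet protein, differed by -0.93 in KO, not called, and -1.54 in WT. Adipoq differed by 0.23 in KO, not called, and -1.30 in WT. The gene called in KO was Fabp4, a fatty acid carrier, which rose by 1.06.

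No adipocyte gene was called in KO against WT, in which 0.21% of all genes were called after OVA and 0.096% after saline. None was called in the difference of the OVA effects, against 0.00457% of all genes. With shares this low, a list without a call says little. The list's median for KO against WT was 0.15 after OVA and -0.45 after saline. The list's mean level ran from -1.07 to -0.86 in KO OVA, -1.63 to -0.72 in WT OVA, -1.02 to -0.49 in KO saline and -0.48 to -0.07 in WT saline, the WT saline arrays being the highest, as for Retn, though KO saline 1 (-0.49) came close to WT saline 3 (-0.48). The fat cell genes Adrb3 and Ucp1 were well above background on 5 and 4 of 11 arrays. What part the amount of fat in the dissected tissue has in the Retn values was not tested.

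The type 2 pathway was tested from genes upstream to genes often expressed with Retnla and Retnlb. Of 13 genes of type 2 cytokines, their receptors and signalling, 2 rose with OVA in KO (median 0.08) and 5 in WT (median 0.25), against 6.45% of all genes called higher in KO and 10.9% in WT, and 0 fell in either. Il5, an eosinophil growth factor, rose by a fitted 2.88 in KO and 2.10 in WT, with its probe well above background on 6 of 11 arrays. Its KO saline levels of -7.79 and -8.66 lay below the dimmest detected signal of their arrays. So did its levels on WT saline 2 (-7.51) and WT saline 3 (-7.43), and neither rise is a measured size. Il33, an epithelial alarmin, rose by 1.64 in KO and by 1.51 in WT. Il4, the cytokine, was 1.82 higher in KO, where it did not pass (limma adjusted p = 0.0686), and rose by 2.06 in WT. Il2rg, the shared receptor chain, was 0.47 higher in KO and not called there, and rose by 0.73 in WT. Stat6 differed by -0.22 in KO and -0.07 in WT, and Il13 by 0.01 in KO and 0.27 in WT, none of them called. Il5, Stat6 and Il13 are named after their values were seen.

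Of 13 genes of alternatively activated macrophages, 10 rose in KO (median 2.51) and 11 in WT (median 1.64), against 6.45% of all genes called higher in KO and 10.9% in WT. Clec10a, a C-type lectin, rose by 2.23 in KO and 1.77 in WT. Chil4, a chitinase-like protein, rose by 2.51 in KO and 1.99 in WT. Chil3, another, was 0.30 higher in KO and not called there, and rose by 0.77 in WT. Of 10 general macrophage markers, 6 rose in KO and 8 in WT, against 6.45% of all genes called higher in KO and 10.9% in WT. Their mean level was 2.70 to 3.32 in KO OVA and 2.80 to 3.27 in WT OVA, against 1.46 to 1.53 in KO saline and 1.38 to 1.66 in WT saline. More macrophages and more transcript per macrophage cannot be told apart from these values, and their part in the Retnla and Retnlb rises was not tested.

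Of 8 goblet cell genes tested, 7 rose in KO (median 1.97) and 8 in WT (median 2.02), against 6.45% of all genes called higher in KO and 10.9% in WT. Itln1, intelectin, rose by a fitted 4.97 in KO and by 3.91 in WT. Its probe was well above background on 9 of 11 arrays and on neither KO saline array, so the KO value is not a measured size. Slc26a4, the anion exchanger pendrin, rose by 5.01 in KO and 4.23 in WT, and Agr2, which helps mucins fold, by 3.60 in KO and 2.66 in WT. The list's mean level was 1.75 to 2.28 in KO OVA and 1.63 to 2.04 in WT OVA, against -0.97 to -0.45 in KO saline and -0.69 to -0.30 in WT saline. No gene of these lists passed in KO against WT, in which 0.21% of all genes were called after OVA and 0.096% after saline. None passed in the difference of the OVA effects, against 0.00457% of all genes.

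Markers of other cell types moved with the challenge as well. Of 6 eosinophil genes tested, 2 rose and 1 fell in each genotype (median 1.19 in KO and 0.88 in WT), and the list's mean level was -0.85 to -0.47 in KO OVA and -1.49 to -0.18 in WT OVA, against -2.46 to -1.87 in KO saline and -2.33 to -1.84 in WT saline. Of 5 club cell genes, 0 fell in KO (median -0.96) and 2 fell in WT (median -0.72). Their mean level was 5.33 to 6.07 in KO OVA and 4.97 to 6.05 in WT OVA, against 6.58 to 6.74 in KO saline and 6.33 to 6.41 in WT saline. Of 8 alveolar type II genes, none was called in KO, and 1 rose and 1 fell in WT. Of all genes, 6.45% were called higher and 1.78% lower in KO, and 10.9% were called higher and 7.91% lower in WT. The part of these cells in the Retnla and Retnlb values was not tested.

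Genes for proteins reported to bind resistin-like proteins were looked at next. Of 5 such genes none was called in KO and 1 rose in WT, against 6.45% of all genes called higher in KO and 10.9% in WT. Btk, a tyrosine kinase, was 0.66 higher in KO (limma adjusted p = 0.12) and rose by 0.79 in WT (limma adjusted p = 0.0412). Dcn, the matrix proteoglycan decorin, was lower by values that did not pass, -0.63 in KO and -0.64 in WT. Cap1, an actin-binding protein reported as a resistin receptor in humans, differed by 0.16 in KO and 0.33 in WT and was not called.

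Retnla is also known as a gene induced by hypoxia. Of 10 genes of the hypoxia response, 3 rose and 0 fell in KO (median 0.43), and 2 rose and 1 fell in WT (median 0.56). Of all genes, 6.45% were called higher and 1.78% lower in KO, and 10.9% higher and 7.91% lower in WT. Ldha, lactate dehydrogenase, rose by 0.66 in KO and 0.57 in WT, and Slc2a1, a glucose transporter, was 0.50 higher in KO, not called, and rose by 0.61 in WT. Bnip3, a mitophagy receptor, was -0.63 in KO, not called, and fell by 0.72 in WT. Over all genes tested the median difference was -0.01 in KO and 0.02 in WT.

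**Figure D4:**
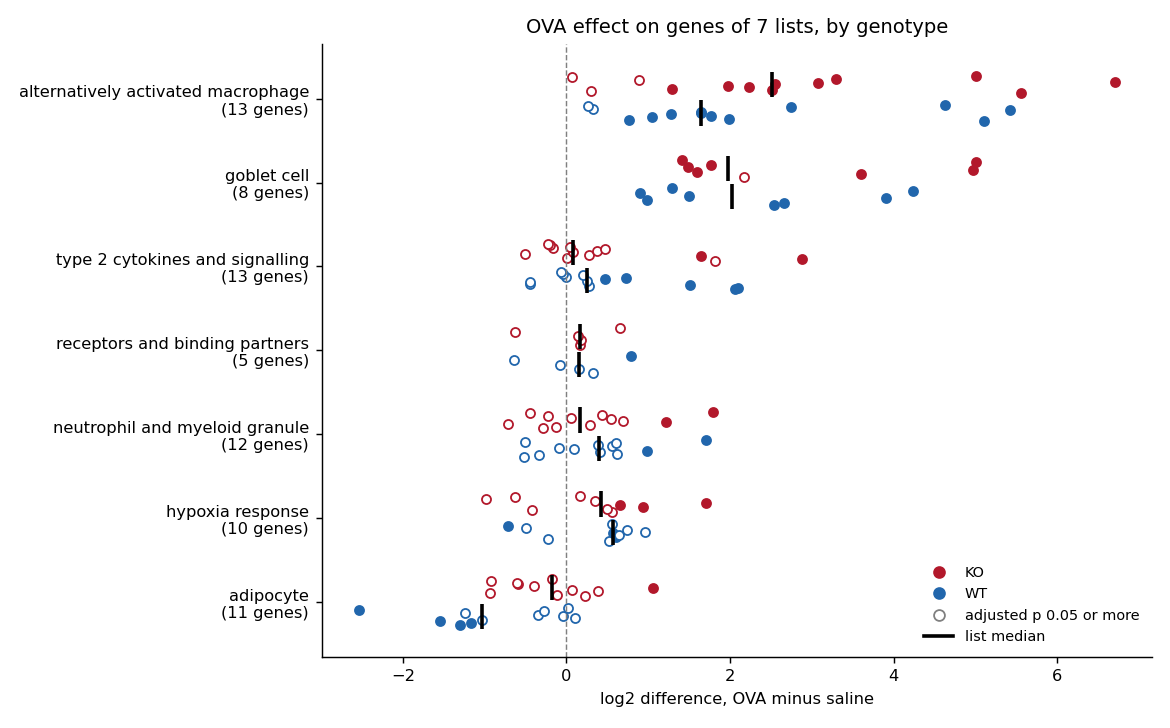
Log2 difference of OVA minus saline (horizontal axis) for the tested genes of 7 lists, KO above WT in each pair of rows; filled points have a limma adjusted p under 0.05 and black bars are list medians. Genes of alternatively activated macrophages and goblet cells lie mostly to the right of 0 in both genotypes, and the adipocyte median is -0.18 in KO and -1.03 in WT.

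The 3 chromosome 16 members lie next to each other, in the order Retnlb, Retnla, Retnlg in RefSeq (GRCm38.p6), and their neighbours were looked at for their position, a choice made after the rule for named genes. On one side lie Trat1, then Morc1 and Dppa2, and on the other Dzip3, Cip2a and Myh15. Trat1 and Dzip3, the genes next to the cluster, were not called, at 0.27 and -0.03 in KO and 0.72 and 0.28 in WT. Farther out, Morc1 rose by 2.19 in KO and 1.66 in WT, with its probe well above background on 9 of 11 arrays. Cip2a, a gene of dividing cells, rose by 2.37 in KO and 2.08 in WT. Of all genes, 6.45% were called higher in KO and 10.9% in WT. Around Retn on chromosome 8, Stxbp2 and Mcemp1, its measured neighbours, differed by 0.10 and 0.14 in KO and by 0.19 and 0.29 in WT, and neither was called. Farther out, Pet100 rose by 0.61 in KO and 0.53 in WT, and Pcp2 and Trappc5 were not called.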

How the data were processed

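Per the file headers, the authors deposited for each of 11 arrays a scanner table whose background-subtracted intensity was computed by Feature Extraction, version 9.5.1.1 there and 9.1 per the submitters' processing notes. The deposited value table holds log2 values by the authors of the same arrays, whose method the labels do not state, and it was used as an alternative. RNA came from spin columns and was amplified and labelled with Cy3, per the labels.

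From these, intensities were taken as log2 minus the array's 75th percentile. Uneven and outlier spots were left out. A probe had to be well above background on 2 or more arrays, which left 32942 probes, and the brightest stood for each of 21872 genes. One limma model (3.58.1, R 4.3.3) with a mean per group was fitted over all 11 arrays with empirical Bayes moderation, two-sided, with Benjamini-Hochberg adjustment over all genes and a threshold of 0.05. Symbols were updated through a RefSeq table (GRCm38.p6): 22951 probes by accession, 6659 by symbol, 3109 by synonym, and 8455 kept the file's name. Where every array of a group was below background, the bright group's mean was set against, per array, the higher of the dimmest detected signal and the probe's own.

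The genes named are the 4 members, Foxa3, the 4 genes nearest to each member in array profile, and, of the 7 lists other than the cell type markers, the 3 members with the smallest p for OVA in WT. Il5, Il13, Stat6, Fabp4, Adrb3, Ucp1, Arg1, Ccl24, the ranges given for Clca1, Agr2, Chil3 and Chil4, and the chromosome neighbours were chosen after their values were seen or after that rule. So were S100a8, S100a9, Mmp8, Mmp9 and Csf3r. The members and lists were chosen with earlier results of these data known. The model was tested on simulated data. No array pair held identical values. The number of arrays limits precision. Alternatives were normexp (offset 50), quantile and median scaling, a filter of 5 arrays or none, other probe summaries, a fit of the compared groups alone, a trended robust variance prior, slide and replicate number as blocks, the authors' table and each array left out. Fits that leave out a slide were chosen after the data were seen. All arrays share 1 scan date, so it could not serve as a block. Same-numbered arrays did not deviate together (correlations of -0.405 to 0.341 over 15 pairs), so the numbers were not taken as pairs.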

Additional observations from a re-analysis of the deposited data

How the results depend on the processing

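Of 516 alternative values for the 20 member comparisons, 472 kept their direction and their side of the threshold, 9 lost a call, 5 gained one and 30 turned the sign of a value that was not called. The cause was not tested in any case. A call could be lost only for the OVA effects on Retnla and Retnlb, to which all 9 losses belong. Some alternatives could not move a difference, such as leaving out an array of a group not compared. The 472 are therefore not a measure of how firm the calls are. OVA against saline in KO was not called for Retnla (2.42) and Retnlb (5.83) when only those 5 arrays were fitted, with fewer samples to estimate the spread. Without slide 1, KO Retnlb was 7.05 and WT Retnlb 6.05, without slide 2 KO Retnla was 1.74 and KO Retnlb 4.13, and without slide 3 WT Retnla was 2.70, none of them called. Calls were gained for Retnlg in WT with normexp (1.39), the trended robust prior (1.43) and the authors' table (1.40), and for Retn in WT with the authors' table (-0.82).

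Signs turned only for values that were not called. Without slide 1 these were Retn for OVA in KO (-0.0066) and for KO against WT after OVA (0.17), Retnlb for KO against WT after saline (-0.99, mostly below background), and Retnla (0.74) and Retnlb (1.00) for the difference of the OVA effects. Without slide 2 they were Retnlb (-0.78) and Retn (0.19) after OVA, Retnla after saline (0.72) and Retnlg for the difference (0.032), and without slide 3 Retnla after saline (0.092) and Retnlb for the difference (0.16). Normexp gave -0.015 for Retnlb in KO against WT after OVA. Quantile scaling gave 0.15 and the authors' values gave 0.094 for Retnla in the difference of the OVA effects.

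Leaving out each array in turn, the OVA effect in KO ran from 1.65 to 3.19 for Retnla, 4.32 to 7.33 for Retnlb, 0.98 to 1.69 for Retnlg and 0.0052 to 0.48 for Retn. The OVA effect in WT ran from 2.32 to 2.69, 5.97 to 6.93, 0.90 to 1.89 and -1.25 to -0.52 for the same genes. KO against WT after OVA ran from -0.31 to -0.088 for Retnla, -0.59 to 0.50 for Retnlb, 0.26 to 0.66 for Retnlg and -0.56 to 0.18 for Retn. After saline the ranges were -0.85 to 0.69, -0.99 to 2.02, 0.039 to 1.03 and -1.56 to -1.08. For the difference of the OVA effects they were -0.86 to 0.67, -1.99 to 1.02, -0.55 to 0.44 and 0.76 to 1.50.

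Counts of genes called moved more than the members. OVA in KO called 1801 genes (78.3% of them higher), and 1185 with no filter, 446 with only the groups compared, 2771 with the trended prior, 845 with a slide block, 2856 with the authors' table (57.5% higher), 13 without slide 1 and 3 without slide 2. OVA in WT called 4109 (57.9% higher), and 2039 with only the groups compared, 2720 with a slide block, 5084 with the authors' table (47.4% higher), and 43, 1876 and 521 without slides 1 to 3. KO against WT after OVA called 46, and 84 with normexp, 11 with only the groups compared, 95 with the trended prior, 24 with a slide block, 95 with the authors' table, and 1, 4 and 7 without slides 1 to 3. After saline it called 21, and 35 with every probe tested, 10 with only the groups compared, 12 with a slide block, and 1, 2 and 9 without slides 1 to 3. The difference of the OVA effects called 1 gene (566 at an unadjusted p under 0.05), and 0 with normexp, quantile scaling, the stricter filter, no filter, every probe, the trended prior, the slide block, the authors' table and each slide left out. With single arrays left out, the counts ran from 83 to 3307 for OVA in KO, 1052 to 6264 for OVA in WT, 17 to 35 and 11 to 23 for KO against WT after OVA and saline, and 0 to 1 for the difference.

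With a replicate block, OVA in KO called 716 genes and the difference 0, Retnla was 2.39 and Retnlb 5.62 in KO, and both were called in KO and WT. The block changed no call of a member. The deviations of same-numbered arrays had a median correlation of -0.12 over 15 pairs. That of arrays on the same slide was 0.266, against -0.157 on different slides, so arrays of a slide tended to deviate together. The main model has no slide term, and a slide block changed no call of a member. Signal over background limits Retnlb, which was detected on 1 of the 5 saline arrays.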
